A study of Mus musculus with 15 samples.

Results

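The genes that write and erase methylation of H3K27, a lysine in the tail of histone H3, were followed in whole mouse lung after bleomycin injury. The set held 9 of the 33340 genes counted. It comprised the alternative catalytic subunits Ezh1 and Ezh2 of Polycomb repressive complex 2 (PRC2), its core subunits Eed and Suz12, its accessory subunits Jarid2, Phf1 and Phf19, and the H3K27 demethylases Kdm6a and Kdm6b. The members were chosen by gene name from these families, with their CPM (counts scaled to the size of the library) and their differences between days in the same libraries already known. Those differences are therefore given as a description of the set, with the adjusted p of each gene taken from a fit to all genes.

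Polyadenylated RNA was sequenced from whole lungs of young adult male C57BL/6 mice. Bleomycin, a DNA-damaging antibiotic that provokes inflammation and then scarring of the lung, was given into the trachea at 5 U/kg, and lungs were taken after 7, 14 and 21 days. There were 4 libraries each for day 0, day 7 and day 14, and 3 for day 21. Day 0 libraries were titled controls and carried no treatment, except that replicate 4 has a treatment label naming bleomycin and was kept in day 0 by its title. The labels name no transgene or deletion, and no saline-instilled group was analysed here. The libraries are described as biological replicates, but the labels do not tie each to an animal of its own, so the p-values measure the spread between these libraries.

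PRC2 adds methyl groups to H3K27 and thereby keeps developmental and lineage genes silent, and PRC1, a second Polycomb complex, binds the mark through its CBX subunits. Ezh2 is abundant in dividing cells, whereas Ezh1 is the enzyme of resting, differentiated tissue. Kdm6a (UTX) and Kdm6b (JMJD3) remove the mark, and Kdm6b is known as a gene that inflammatory signals switch on.

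Library totals lay between 15652008 and 18020661 counts. All 9 members passed the filter on low counts, and their raw counts ran from 46 (the lowest Phf19 library) to 1997 (the highest Kdm6b library). The share of counts from mitochondrial genes separated libraries of the same day. It was under 2.5% in day 0 replicates 1 and 2, in the 4 day 7 libraries and in day 14 replicate 1, and over 3.5% in day 0 replicates 3 and 4, day 14 replicates 2 to 4 and day 21 replicate 1. Within libraries of like share, day 7 was compared with day 0 replicates 1 and 2. Day 14 replicates 2 to 4 were compared with day 0 replicates 3 and 4. Both comparisons hold fewer libraries than the reported fit, which also widens their p-values. In RNA from whole tissue, fewer cells of a type and less RNA per cell cannot be told apart.

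At day 14 the catalytic subunits moved in opposite directions, Ezh2 up and Ezh1 down, and the demethylase Kdm6b and the accessory subunit Phf1 were down at the same time. A gene was counted as changed at an adjusted p under 0.05 in edgeR's quasi-likelihood test and a fold change over 1.5. At day 7, 0 members rose and 2 fell (Phf1 and Kdm6b), beside 16.1% of all 17457 genes tested that changed in either direction (8.78% up and 7.36% down). At an unadjusted p under 0.05, 2 members were higher and 5 lower at day 7 (38.2% of all genes passed in either direction), and by both thresholds DESeq2 and limma voom each called 0 higher and 2 lower. Over all genes, the day 7 count of 2818 became 1269 once the mitochondrial share entered the fit and 1658 with libraries in 2 sets by it. At day 14, 2 members rose (Ezh2 and Phf19) and 3 fell (Ezh1, Phf1 and Kdm6b), beside 23.1% of all genes (12.0% up and 11.2% down). At day 21, 0 rose and 2 fell (Ezh1 and Phf1), beside 22.5% of all genes (12.4% up and 10.1% down), and 1 member was higher and 5 lower at an unadjusted p under 0.05 (40.5% of all genes in either direction) and 0 rose with DESeq2 or limma voom.

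Most differences were below the fold threshold. On the adjusted p alone, 1 member was higher and 4 were lower at day 7 (25.0% of all genes passed, 14.2% higher and 10.8% lower), 2 were higher and 5 lower at day 14 (33.1% of all genes, 17.9% higher and 15.2% lower), and 1 was higher and 4 lower at day 21 (29.8% of all genes, 16.5% higher and 13.3% lower). The median log2 fold change over the 9 members was -0.30 at day 7, -0.26 at day 14 and -0.22 at day 21, and over all genes tested it was 0.01, 0.02 and 0.02. Summed over the 9 genes, the level was 473 to 528 CPM in the day 0 libraries, 352 to 382 CPM at day 7, 321 to 402 CPM at day 14 and 351 to 375 CPM at day 21. The 3 comparisons share the day 0 libraries.

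**Figure D1:**
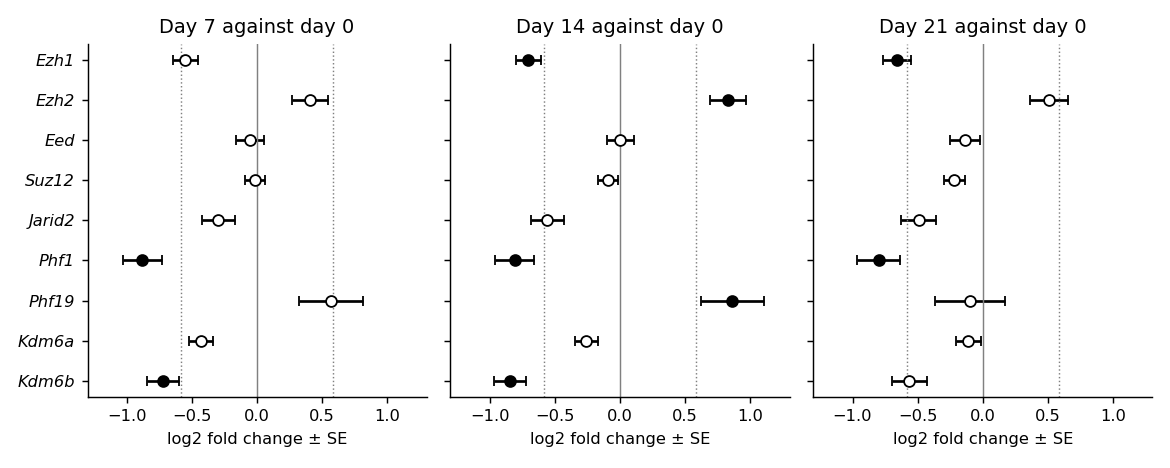
Log2 fold change of each gene against day 0 (x axis) at days 7, 14 and 21, with the standard error as a bar; filled points passed an adjusted p under 0.05 and the 1.5-fold threshold, drawn as dotted lines. Ezh2 and Phf19 lie to the right at day 14 and Ezh1, Phf1 and Kdm6b to the left, while Eed and Suz12 stay near 0.

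Ezh2, which copies H3K27 methylation in cycling cells, lies at chr6:47530139-47595341 on mm10. Its level was 10.6, 13.2, 14.1 and 12.3 CPM in the day 0 libraries, 17.7, 13.8, 16.6 and 18.3 CPM at day 7, 20.3, 21.6, 24.5 and 22.8 CPM at day 14, and 16.02, 16.1 and 21.2 CPM at day 21. All 4 day 14 libraries stood above all libraries of day 0 and of day 7, whereas day 7 replicate 2 fell within the range of day 0. At day 14 Ezh2 was 1.78-fold higher (log2 fold change 0.83, SE 0.14, edgeR adjusted p 0.000333). The log2 fold change was 0.40 (SE 0.14, adjusted p 0.0408) at day 7 and 0.50 (SE 0.15, adjusted p 0.0169) at day 21. The day 14 rise passed in every alternative run, the day 7 difference passed the adjusted p in 7 of 20 fits (the reported one included) and the day 21 difference in 13 of 18. Without day 21 replicate 3 the latter was 0.32 (adjusted p 0.145), and without day 0 replicate 1 the day 7 value was 0.30 (adjusted p 0.134). Once the mitochondrial share entered the fit the day 7 value was 0.47 (adjusted p 0.089), within libraries of like share it was 0.47 (adjusted p 0.0841), and with libraries in 2 sets by that share the day 21 value was 0.42 (adjusted p 0.0503).

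Ezh1, the weaker methyltransferase of resting cells, lies at chr11:101191115-101226463. It went the other way. The day 0 libraries held 100.2, 89.9, 85.8 and 85.1 CPM, those of day 7 held 57.1, 63.0, 64.2 and 62.4 CPM, those of day 14 held 48.9, 49.6, 61.6 and 61.8 CPM, and those of day 21 held 56.5, 59.1 and 56.1 CPM. Every library after bleomycin lay below every day 0 library, with a gap from 85.1 to 64.2 CPM. Ezh1 was 1.63-fold lower at day 14 (log2 fold change -0.70, SE 0.10, adjusted p 8.295e-05) and 1.58-fold lower at day 21 (-0.66, SE 0.11, adjusted p 0.000354). At day 7 it was 1.46-fold lower (-0.55, SE 0.10, adjusted p 0.00123), which is just under the fold threshold and passes it within libraries of like mitochondrial share (-0.64, adjusted p 0.00299) and without day 0 replicate 3 (-0.60) or replicate 4 (-0.60). The day 14 value within libraries of like mitochondrial share was -0.58 (adjusted p 0.0225), just under 1.5-fold.

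The balance between both enzymes can be read within a library, with no scaling between libraries. With 0.5 added to both counts, there were for every Ezh2 count 9.47, 6.80, 6.07 and 6.89 Ezh1 counts in the day 0 libraries, 3.23, 4.56, 3.85 and 3.40 at day 7, 2.41, 2.30, 2.51 and 2.71 at day 14, and 3.52, 3.66 and 2.64 at day 21. No library after bleomycin reached the day 0 range, and the 4 day 14 libraries lay closest together. The log2 ratio of Ezh2 to Ezh1 was -2.85 ± 0.28 (SD, n = 4) at day 0, -1.90 ± 0.22 (n = 4) at day 7, -1.31 ± 0.10 (n = 4) at day 14 and -1.70 ± 0.26 (n = 3) at day 21. The ratio was thus 1.93-fold, 2.91-fold and 2.22-fold that of day 0 at days 7, 14 and 21, and leaving out any library moved the log2 differences no further than 0.82 to 1.05, 1.41 to 1.62 and 1.01 to 1.24. No p is given for it, since the pair was chosen with its levels known. Ezh1 counts stayed more numerous than Ezh2 counts in all 15 libraries.

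**Figure D2:**
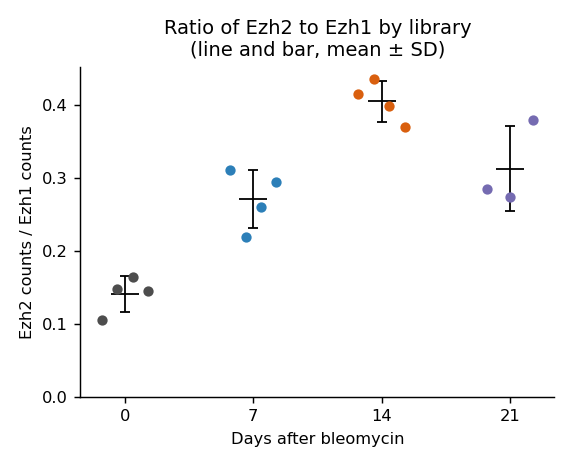
Ezh2 counts divided by Ezh1 counts, with 0.5 added to both (y axis), in each library by days after bleomycin (x axis), with the mean as a line and the SD as a bar. The day 0 libraries lie between 0.106 and 0.165, and the day 14 libraries between 0.369 and 0.435.

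The sequences before the transcription start of the genes that moved in opposite directions are shown, because E2F factors and CCAAT-binding NF-Y are known to act on genes of dividing cells through such short words. They come from RefSeq on GRCm38.p6, which had an entry for 8 of the 9 members (no entry for Kdm6b), with 250 bases before and 50 bases after the start. Each is read 5′ to 3′ on the strand of the gene and limited to the longest stretch free of annotated exons. Capitals mark a match on either strand to CCAAT or to one of 4 E2F words (TTTCCCGC, TTTGGCGC, TTTGGCGG and TTTCGCGC). The Ezh2 stretch is chr6:47595059-47595183 on the minus strand and runs from base 153 to base 29 before the start, that of Phf19 is chr2:34914027-34914215 on the minus strand, from base 239 to base 51, and that of Ezh1 is chr11:101226464-101226713 on the minus strand, from base 250 to base 1. Bases are counted from the RefSeq start. For Ezh2 that start lies inside the gene span given above, taken from GENCODE M21, so the Ezh2 stretch lies within that span. The Phf19 and Ezh1 stretches lie directly before the spans given for those genes.
Ezh2: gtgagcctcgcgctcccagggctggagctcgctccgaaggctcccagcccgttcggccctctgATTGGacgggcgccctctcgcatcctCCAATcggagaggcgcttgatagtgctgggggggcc
Phf19: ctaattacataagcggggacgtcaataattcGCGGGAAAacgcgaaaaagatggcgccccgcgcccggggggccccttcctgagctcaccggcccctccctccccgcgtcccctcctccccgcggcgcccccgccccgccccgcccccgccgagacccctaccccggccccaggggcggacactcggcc
Ezh1: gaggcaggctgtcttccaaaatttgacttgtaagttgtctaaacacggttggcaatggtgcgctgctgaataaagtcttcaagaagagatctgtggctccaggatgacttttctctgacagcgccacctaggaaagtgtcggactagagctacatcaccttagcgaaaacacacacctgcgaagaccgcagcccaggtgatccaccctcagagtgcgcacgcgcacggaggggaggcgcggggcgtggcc
The whole Ezh2 window held 3 CCAAT words, with their first bases 90, 64 and 11 bases before the start, and the E2F word TTTGGCGC from base 4 after it. Of all 32851 RefSeq promoter windows of that length, 3.37% held 3 or more CCAAT words, 37.4% held at least 1, and 2.37% held an E2F word. Phf19 had an E2F word on the other strand (GCGGGAAA, 208 bases before the start), and Suz12 had TTTCCCGC (219 bases before) and CCAAT (61 bases before). Eed and both Jarid2 windows had CCAAT alone, and Ezh1, Phf1 and Kdm6a had neither. A match is only a run of letters in the window.

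Neither core subunit passed a threshold against day 0. Eed, which binds methylated H3K27 and stimulates the enzyme, lies at chr7:89954654-89980983. It ranged from 33.4 to 42.7 CPM at day 0, 34.6 to 37.6 CPM at day 7, 33.5 to 40.8 CPM at day 14 and 29.0 to 36.9 CPM at day 21, and all days overlapped. Its log2 fold changes were -0.06 (SE 0.11), 0.00 (SE 0.11) and -0.14 (SE 0.12) at days 7, 14 and 21, with adjusted p of 0.737, 0.985 and 0.393, and the sign at days 7 and 14 depended on the fit. Suz12, which holds the complex together (chr11:79993106-80034123), ranged from 57.5 to 62.8 CPM at day 0, 57.6 to 62.3 CPM at day 7 and 53.2 to 61.2 CPM at day 14. At day 21 it was 53.2, 50.7 and 53.9 CPM, below every day 0 library, with a log2 fold change of -0.22 (SE 0.08, adjusted p 0.0564). That difference passed the adjusted p in 7 of 18 fits, which ranged from 0.0131 to 0.171, the covariate fit among those that passed (-0.22, adjusted p 0.043). The log2 fold change of Suz12 was -0.01 (adjusted p 0.917) at day 7 and -0.09 (adjusted p 0.377) at day 14.

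Jarid2, which recruits PRC2 to its targets, lies at chr13:44729474-44921643. It measured 38.9, 39.7, 44.3 and 47.6 CPM at day 0, 35.4, 29.8, 40.8 and 32.9 CPM at day 7, 26.9, 24.1, 32.2 and 32.8 CPM at day 14, and 28.0, 30.2 and 32.7 CPM at day 21. All day 14 and day 21 libraries lay below day 0, while day 7 replicate 3 lay within it. The log2 fold change was -0.30 (SE 0.12, adjusted p 0.0894) at day 7, -0.56 (SE 0.12, adjusted p 0.00312) at day 14 and -0.49 (SE 0.14, adjusted p 0.0124) at day 21. The day 7 difference passed the adjusted p in 2 of 20 fits, with replicate number as a block (adjusted p 0.0496) and without day 7 replicate 3 (adjusted p 0.0469). The day 14 value was 1.47-fold lower, and it crossed 1.5-fold with libraries in 2 sets by mitochondrial share (-0.60, adjusted p 0.00152), within libraries of like share (-0.64, adjusted p 0.0313), with a filter at a mean of 1 CPM (-0.59), and without day 0 replicate 1 (-0.63), day 0 replicate 2 (-0.61), day 14 replicate 3 (-0.61) or day 14 replicate 4 (-0.62).

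Phf1 and Phf19 are Polycomb-like proteins that tether PRC2 to CpG-rich DNA, and at day 14 they had moved in opposite directions. Phf1 (chr17:26933052-26937908) measured 83.0, 87.3, 122.5 and 109.6 CPM at day 0, 53.2, 49.0, 59.2 and 57.3 CPM at day 7, 44.9, 61.2, 66.9 and 56.9 CPM at day 14, and 63.0, 63.5 and 46.9 CPM at day 21. All libraries after bleomycin were below all those of day 0. It was 1.84-fold lower at day 7 (log2 fold change -0.88, SE 0.15, adjusted p 0.000909), 1.75-fold lower at day 14 (-0.81, SE 0.15, adjusted p 0.000825) and 1.74-fold lower at day 21 (-0.80, SE 0.16, adjusted p 0.00194). The day 0 libraries of high mitochondrial share held more Phf1 than the others, and once the share entered the fit the day 7 difference was -0.55 (adjusted p 0.00511), under 1.5-fold. With libraries in 2 sets by that share it was -0.64 (adjusted p 0.0033), and within libraries of like share -0.66 (adjusted p 0.00366), both past 1.5-fold. Phf1 shares 1370 of its 3486 exonic bases (39.3%) with Cuta on the opposite strand, and the strand setting of the counting was not stated, so reads of both genes may be mixed. Cuta, counted apart, had log2 fold changes of 0.44 (adjusted p 0.0451), 0.34 (adjusted p 0.0937) and 0.04 (adjusted p 0.882).

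Phf19 (chr2:34893757-34914026) was the least abundant member. It measured 3.17, 2.78, 5.84 and 4.30 CPM at day 0, 6.34, 5.14, 6.15 and 6.24 CPM at day 7, 4.90, 8.55, 8.98 and 6.82 CPM at day 14, and 3.15, 3.99 and 4.12 CPM at day 21. Day 0 replicate 3 overlapped both day 7 and day 14, and day 21 was back within the day 0 range. The log2 fold change was 0.57 (SE 0.24, adjusted p 0.0981) at day 7, 0.86 (SE 0.24, adjusted p 0.0134) at day 14 and -0.10 (SE 0.27, adjusted p 0.815) at day 21. The rise at day 14 was 1.82-fold and did not hold within libraries of like mitochondrial share (0.67, adjusted p 0.107), without day 0 replicate 1 (0.74, adjusted p 0.0503) or without day 0 replicate 2 (0.69, adjusted p 0.0512). At day 7 it passed both thresholds with that share as a covariate (1.02, adjusted p 0.0158), with 2 sets by it (0.99, adjusted p 0.0052), within like libraries (0.99, adjusted p 0.0157) and without day 0 replicate 3 (0.78, adjusted p 0.037). At day 0 the replicates of high mitochondrial share, 3 and 4, held more Phf19 than replicates 1 and 2.

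Kdm6b, the inducible demethylase, lies at chr11:69398508-69413675. It measured 97.4, 110.0, 107.5 and 111.4 CPM at day 0, 55.2, 69.7, 67.2 and 66.8 CPM at day 7, 52.1, 51.7, 69.5 and 64.2 CPM at day 14, and 74.3, 81.7 and 60.4 CPM at day 21. All 11 libraries after bleomycin were below all 4 of day 0. Kdm6b was 1.65-fold lower at day 7 (log2 fold change -0.72, SE 0.12, adjusted p 0.000902) and 1.80-fold lower at day 14 (-0.84, SE 0.12, adjusted p 0.000121), and both held in every alternative run. At day 21 it was 1.48-fold lower (-0.56, SE 0.13, adjusted p 0.00499), on the edge of the fold threshold, which it crossed with DESeq2 (-0.59, adjusted p 0.000389), with libraries in 2 sets by mitochondrial share (-0.64, adjusted p 0.00357) and without day 21 replicate 2 (-0.70, adjusted p 0.00277), among other fits.

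Kdm6a (chrX:18162575-18279936), the demethylase that also serves enhancers in the MLL3/4 complexes, followed another course. It measured 43.1, 42.3, 43.6 and 41.6 CPM at day 0, 28.9, 32.4, 29.9 and 35.5 CPM at day 7, 34.0, 32.2, 37.8 and 38.7 CPM at day 14, and 39.0, 41.2 and 38.2 CPM at day 21. The values were lowest at day 7, and all 3 later days stayed below the narrow day 0 range. The log2 fold change was -0.43 (SE 0.09, adjusted p 0.00377) at day 7, -0.26 (SE 0.09, adjusted p 0.0387) at day 14 and -0.11 (SE 0.10, adjusted p 0.419) at day 21, so it stayed under 1.5-fold throughout. The day 14 difference passed the adjusted p in 13 of 20 fits. Within libraries of like mitochondrial share, which are fewer, it was -0.25 (adjusted p 0.263), close to the reported -0.26. Uty, the Y-linked copy whose reads can resemble those of Kdm6a, was at 21.6 ± 1.4 CPM (SD, n = 4) at day 0 and 20.6 ± 2.0 CPM (n = 4) at day 7, with a log2 fold change of -0.07 (SE 0.12, adjusted p 0.712).

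**Figure D3:**
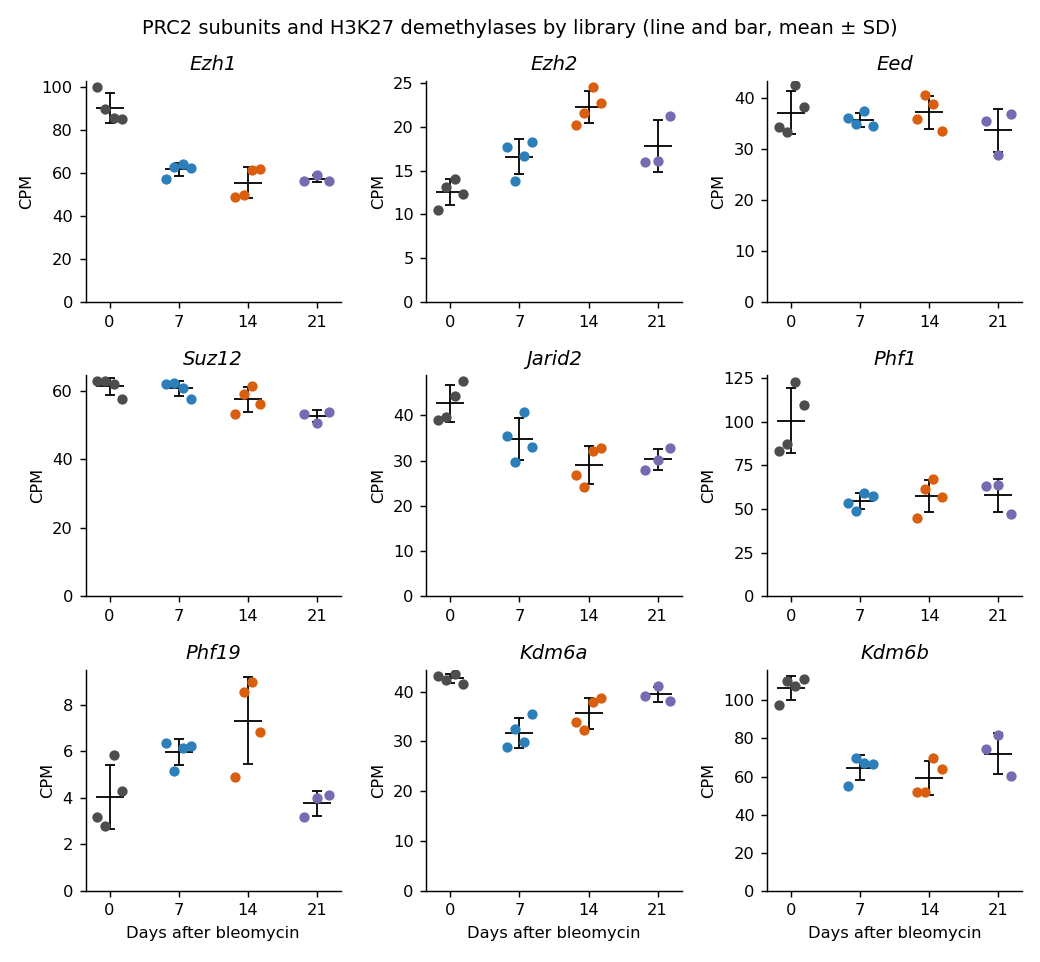
CPM (y axis, from 0) of the 9 genes in each library by days after bleomycin (x axis), with the mean as a line and the SD as a bar. Ezh1, Phf1 and Kdm6b drop after day 0 in all libraries, Ezh2 is highest at day 14, Phf19 is back at its day 0 level by day 21, and Eed overlaps on all days.

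The members also differed in how much RNA they had per length. In CPM per kilobase of exon at day 0, Phf1 was highest at 28.9 ± 5.4 (SD, n = 4), followed by Kdm6b at 15.3 ± 0.9, Suz12 at 12.4 ± 0.5, Ezh1 at 12.1 ± 0.9, Eed at 9.71 ± 1.1, Kdm6a at 5.09 ± 0.11, Jarid2 at 4.39 ± 0.42, Ezh2 at 1.88 ± 0.23 and Phf19 at 0.798 ± 0.27. Of neighbours in this order, Suz12 and Ezh1 overlapped in their libraries, and the other neighbours did not. At day 14 Ezh2 reached 3.34 ± 0.27 CPM per kilobase and Jarid2 was at 2.99 ± 0.43, with overlapping libraries, and Ezh1 was at 7.46 ± 0.97.

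Between the later days, 0 members changed by both thresholds in edgeR. The share of all genes that changed was 6.0% between days 14 and 7 (2.77% up and 3.23% down), 9.54% between days 21 and 7 (5.2% up and 4.34% down), and 0.0% between days 21 and 14. These shares depended on single libraries. Between days 14 and 7, the count of 1048 genes was 522, 464 and 340 when replicate 1, 3 or 4 of day 7 was dropped, 348 and 503 when replicate 2 or 3 of day 14 was, and 218 once the mitochondrial share entered the fit. Between days 21 and 7, the count of 1665 was 986, 1032 and 1096 when replicate 1, 3 or 4 of day 7 was dropped, 966 when replicate 1 of day 21 was, and 942 once that share entered the fit. Between days 21 and 14, the count of 0 was 127 when replicate 1 of day 14 was dropped, and 3 and 24 when replicate 2 or 3 of day 21 was. At an unadjusted p under 0.05 there were 1, 3 and 3 members, beside 25.0%, 30.0% and 9.82% of all genes, and DESeq2 called 0, 0 and 1, and limma voom 0 in each. Ezh2 was higher at day 14 than at day 7 in all 4 libraries, with a log2 difference of 0.42 (SE 0.13, adjusted p 0.0675). Phf19 was lower at day 21 than at day 14 in all 3 libraries (-0.96, SE 0.27, adjusted p 0.292), which is the member DESeq2 called (-0.97, adjusted p 0.0482), and lower than at day 7 (-0.67, SE 0.27, adjusted p 0.106). With that share as a covariate, the last was -1.10 (adjusted p 0.0214), and with 2 sets by it -1.42 (adjusted p 0.00972). Kdm6a was higher at day 21 than at day 7 in all 3 libraries (0.32, SE 0.10, adjusted p 0.0443), the single member past the adjusted p alone in that comparison, where 12.6% of all genes passed (6.71% higher and 5.93% lower). It did not pass with the share as a covariate (0.29, adjusted p 0.147) or with 2 sets by it (0.28, adjusted p 0.236). Between days 14 and 7, 0 members passed it, beside 7.36% of all genes (3.49% higher and 3.87% lower), and between days 21 and 14, 0 members and 0.0% of all genes. Days without overlap were seen for 4, 6 and 7 members at days 7, 14 and 21 against day 0, beside 30.8%, 31.1% and 35.5% of all genes. They were seen for 1 member between days 14 and 7, 3 between days 21 and 7 and 1 between days 21 and 14, beside 16.3%, 28.0% and 6.0% of all genes.

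Genes of cell division were also higher on the days after bleomycin. Of 22 such genes, 19 rose at day 7, 18 at day 14 and 14 at day 21, and 0 fell by edgeR's test (0 at an unadjusted p under 0.05, 0 with DESeq2 and 0 with limma voom). Their median log2 fold change was 1.72, 1.80 and 1.20, beside 0.01, 0.02 and 0.02 over all genes. Ccnb1, the cyclin of mitotic entry, had the largest value at day 14 (3.17, SE 0.35, adjusted p 1.235e-05), followed by Cdk1, its kinase (3.06, SE 0.27, adjusted p 2.33e-06), the chromosomal passenger Birc5 (2.88, SE 0.28, adjusted p 4.301e-06) and Ccna2, a cyclin of S and G2 phase (2.83, SE 0.33, adjusted p 1.944e-05). Their summed level was 267 to 311 CPM at day 0, 617 to 752 CPM at day 7, 602 to 735 CPM at day 14 and 327 to 649 CPM at day 21. Among the day 21 libraries, replicate 3 had the highest sum and the highest Ezh2 level. Day 7 and day 14 had overlapping sums, while Ezh2 did not overlap between them. The part that dividing cells play in the Ezh2 and Phf19 levels was not tested.

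**Figure D4:**
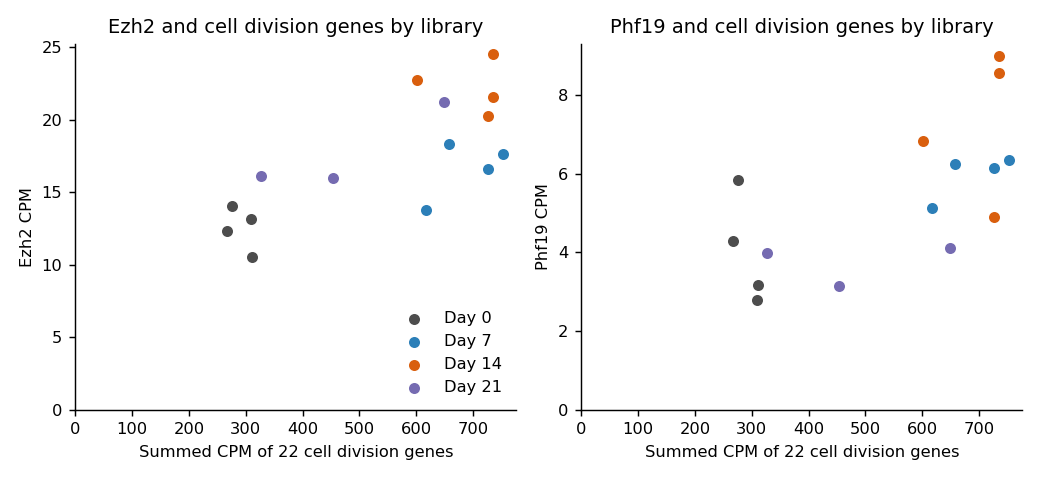
Ezh2 (left) and Phf19 (right) in CPM (y axes) against the summed CPM of 22 cell division genes (x axes), 1 point per library, coloured by day. The day 0 libraries sit at sums of 267 to 311 CPM with Ezh2 at 10.6 to 14.1 CPM, and the day 14 libraries at 602 to 735 CPM with Ezh2 at 20.3 to 24.5 CPM.

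Of 9 other PRC2 subunits and regulators listed, 8 were counted and tested. Epop, an accessory factor that links PRC2 to elongin, fell at day 14 (log2 fold change -0.92, SE 0.29, adjusted p 0.025) and at day 21 (-1.19, SE 0.32, adjusted p 0.0122). It measured 10.4, 6.83, 16.6 and 8.37 CPM at day 0 and 5.32, 8.36, 4.23 and 4.47 CPM at day 14, so those days overlapped. The day 14 call was lost in 5 of 19 alternatives, and without day 0 replicate 3 it was -0.63 (adjusted p 0.0933). At day 7, 0 of the 8 changed (1 at an unadjusted p under 0.05, 0 with DESeq2 and 0 with limma voom). On the adjusted p alone, Mtf2, the third Polycomb-like protein, was higher at day 14 (0.24, SE 0.08, adjusted p 0.0396) and day 21 (0.33, SE 0.09, adjusted p 0.0125), and the histone-binding subunit Rbbp7 was higher at day 7 (0.42, SE 0.12, adjusted p 0.0158). The median over the 8 was -0.02, 0.13 and 0.17.

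In PRC1, Cbx7 dropped the most. Cbx7, a chromodomain reader of methylated H3K27, measured 93.3, 84.5, 118.6 and 119.1 CPM at day 0, 42.8, 37.9, 54.9 and 42.7 CPM at day 7, 30.7, 34.7, 44.2 and 36.9 CPM at day 14, and 58.3, 52.8 and 40.2 CPM at day 21. All later libraries lay below all those of day 0, by log2 fold changes of -1.22 (SE 0.16, adjusted p 0.000132), -1.50 (SE 0.16, adjusted p 8.589e-06) and -1.04 (SE 0.17, adjusted p 0.000442), and these held in all alternatives run. Of the 21 PRC1 subunits, Pcgf2 was the only other to pass both thresholds in edgeR, at day 7 (-0.64, SE 0.18, adjusted p 0.0169), and once the mitochondrial share entered the fit it was -0.29 (adjusted p 0.249). On the adjusted p alone, the ubiquitin ligase Ring1 was lower on all 3 days (-0.38, -0.41 and -0.57), Rybp (-0.48 and -0.41) was lower at days 14 and 21, and Pcgf3 was higher on those days (0.24 and 0.27). The median over the 21 was 0.01, -0.04 and 0.02.

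Of the 6 opposing enzymes, the H3K27 acetyltransferases Ep300 and Crebbp and the H2A deubiquitinase Bap1 with its partners Asxl1 to Asxl3, 0 passed both thresholds on any day in edgeR, DESeq2 or limma voom. At an unadjusted p under 0.05 there were 0, 0 and 1, the last being Asxl1 at day 21 (0.30, SE 0.11, adjusted p 0.04996). Ep300 had log2 fold changes of -0.22 (SE 0.15), -0.31 (SE 0.15) and -0.22 (SE 0.16), and Crebbp of -0.22 (SE 0.13), -0.24 (SE 0.13) and -0.10 (SE 0.14).

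Genes that PRC2 is known to keep silent were mostly too low to test. Of 30 listed, 27 were counted and 8 passed the filter. At day 7, 1 rose, at day 14, 2 rose and 2 fell, and at day 21, 2 rose and 1 fell. Both that rose at days 14 and 21 are cell cycle inhibitors of the Ink4 locus. Cdkn2a, which encodes p16 and Arf, was at 0.453, 0.302, 0.127 and 0.837 CPM at day 0, 1.08, 0.726, 0.989 and 0.951 CPM at day 7, 3.84, 5.10, 1.83 and 1.75 CPM at day 14 and 4.76, 1.88 and 4.77 CPM at day 21. These levels rest on 2 to 15 counts in the day 0 libraries. Its log2 fold change was 2.82 (SE 0.50, adjusted p 0.000621) at day 14 and 3.10 (SE 0.52, adjusted p 0.000473) at day 21, with the former at 2.52 (adjusted p 0.0606) within libraries of like mitochondrial share. Cdkn2b, which encodes p15, was at 32.7, 23.8, 15.9 and 15.5 CPM at day 0 and 66.1, 70.7, 41.0 and 46.0 CPM at day 14. It rose at day 7 (0.86, SE 0.27, adjusted p 0.028), day 14 (1.35, SE 0.27, adjusted p 0.00141) and day 21 (1.43, SE 0.28, adjusted p 0.00158). The day 7 rise was lost in 7 of 19 alternatives, the covariate fit among them (0.48, adjusted p 0.263).

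Eomes, a developmental factor that T and NK cells also use, fell at day 14 (-1.89, SE 0.64, adjusted p 0.0332) and day 21 (-2.22, SE 0.73, adjusted p 0.0309), from 0.502 to 3.30 CPM at day 0 to at most 0.801 CPM, so the days overlapped, and the call was lost in 9 of 18 and 5 of 16 alternatives. On the adjusted p alone, Tbx5 was higher at day 21 (log2 fold change 0.55, SE 0.15, adjusted p 0.0123). The median over the 8 tested, Gata6 and Tbx5 among them, was 0.17, 0.01 and 0.22.

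**Figure D5:**
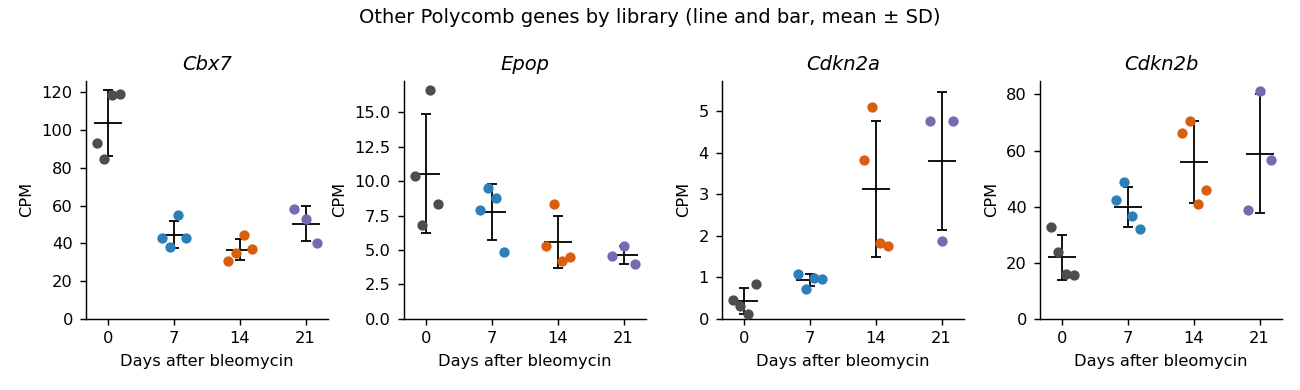
CPM (y axes, from 0, each on its own scale) of Cbx7, Epop, Cdkn2a and Cdkn2b in each library by days after bleomycin (x axes), with the mean as a line and the SD as a bar. Cbx7 is at 84.5 to 119.1 CPM at day 0 and at 30.7 to 44.2 CPM at day 14, and Cdkn2a is above its day 0 range in all day 14 and day 21 libraries.

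Markers of several cell types differed from day 0 on the same days, though not all markers of a type moved alike. All 9 lung epithelial and all 6 endothelial markers were detected in every library. Epithelial markers summed to 53320 to 68640 CPM at day 0 and 14240 to 28090 CPM at day 14, and 2, 5 and 5 of 9 fell at days 7, 14 and 21, while Ager had a log2 fold change of 0.22 (adjusted p 0.517) at day 14 and Epcam of 0.49 (adjusted p 0.0479) at day 7. Endothelial markers summed to 2668 to 3113 CPM at day 0 and 1441 to 2378 CPM at day 14, with 2, 3 and 1 of 6 down. Fibroblast markers summed to 1311 to 1989 CPM at day 0 and 3588 to 13130 CPM at day 14, with 4 of 6 up on each day (Pdgfra was at -0.23 and Dcn at -0.42 on the log2 scale at day 14, adjusted p 0.459 and 0.0975), and those of macrophages and monocytes to 340 to 469 CPM and 662 to 1462 CPM, with 2, 4 and 3 of 6 up. Neutrophil markers summed to 367 to 749 CPM at day 0 and 106 to 414 CPM at day 14, with 3, 1 and 4 of 5 down (3, 4 and 4 with limma voom). B cell markers summed to 75.3 to 136 CPM at day 0 and 14.4 to 60.9 CPM at day 14, with 0, 4 and 4 of 4 down, and of 5 T cell markers 0, 1 and 0 fell. The part of these cells in the levels of Ezh1, Phf1, Kdm6b or any other member was not tested.

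Immediate early genes, which respond within minutes to stress and to handling of tissue, also differed within day 0. Their 12 genes summed to 1500, 1180, 2346 and 5801 CPM in the day 0 libraries and to 1286 to 1769 CPM in all later ones, and 4, 5 and 4 of them fell at days 7, 14 and 21 in edgeR, while Ier3 rose at day 14. DESeq2 called 6, 6 and 4 lower and limma voom 0, 1 and 2. Kdm6b ranged from 97.4 to 111.4 CPM over the same day 0 libraries. The part of stress or handling in the levels of Kdm6b or any other member was not tested.

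Some genes followed the members closely over the 15 libraries. Correlations are of log2 CPM among 12249 genes with a mean of at least 5 CPM, and they carry the difference between days, so the value within days is given beside each. Among the nearest to Ezh2 were E2f7 (Pearson r 0.977, within days 0.913), Dbf4 (0.91, 0.46), Rcan1 (0.909, 0.498) and Kif4 (0.907, 0.465). For Ezh1 they were Gid4 (0.968, 0.783), Bcl7a (0.963, 0.69), Fmo5 (0.958, 0.785), Crebl2 (0.957, 0.788) and Rnf146 (0.954, 0.654). For Kdm6b they were Dock9 (0.968, 0.853), Aff3 (0.966, 0.852), Tmtc1 (0.964, 0.882), Tns2 (0.962, 0.808) and Ccdc85a (0.958, 0.755). They are the highest values of a search over all these genes, the points share libraries and scaling, and no p is given.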

How the data were processed

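Polyadenylated RNA of whole mouse lung was sequenced from 15 NEBNext Ultra libraries. Per the labels and methods, adapters were trimmed (TrimGalore), HISAT2 2.1.0 aligned to mm10, and multi-mapped reads were dropped. The authors then deposited the HTSeq 0.6.0 counts of reads per Ensembl gene. The annotation release and strand setting are not given in the sources used here, so overlapping genes carry that uncertainty. The deposited counts were not normalized.

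Symbols and exon lengths were taken from GENCODE M21 (33267 of 33340 identifiers matched). Counts were tested with edgeR 4.0.16 in R 4.3.3, with day as the only term, all 15 libraries in 1 fit, TMM factors and filterByExpr (17457 genes kept). P-values were adjusted over all genes by Benjamini-Hochberg. CPM use TMM-adjusted library sizes, and the common biological coefficient of variation came to 22.8%. A seeded simulation with known fold changes was used to check the fit.

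Groups came from the sample titles. The members, the lists (other PRC2 genes, PRC1, opposing enzymes, Polycomb-silenced genes, cell division, immediate early genes and 7 sets of cell type markers) and the tests were chosen with earlier results of these data known. The genes named were all members, the changed genes of the PRC2, PRC1 and opposing lists, up to 4 changed genes of every other list with the largest absolute log2 fold change, and the 5 genes most correlated with Ezh2, Ezh1 and Kdm6b, predicted genes left out. Some genes that these rules name are not reported here. Alternatives were DESeq2 1.42.0, limma voom 3.58.1, RLE and total count scaling, other filters, 2 groups alone, a replicate block, the mitochondrial share as a covariate, as 2 sets parted at 2.5%, and within sets of like share (under 2.5% or over 3.5%), no fold threshold, and leaving out each library. Running them for Cbx7, Pcgf2, Epop, Cdkn2a, Cdkn2b and Eomes was decided after the data were seen. Depth limits the precision of Phf19 most, and PCR copies are not independent molecules.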

Additional observations from a re-analysis of the deposited data

Results flagged for a closer look

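Among the 4 day 7 libraries, replicate 2 stood apart for Phf19. It held 5.14 CPM, while the other 3 held 6.15 to 6.34 CPM, so its gap took up most of the range of that day. Of 30 groups of 4 libraries examined, 1 had such a library, and chance alone gives about 5% of groups.

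Kdm6a differed between days in its distance from day 0. Its log2 fold change against day 0 was -0.43 at day 7 and -0.11 at day 21, and the difference between the days was 0.32 (SE 0.10, edgeR adjusted p 0.0443), with all 3 day 21 libraries above all 4 of day 7. The direction was the same in every alternative run, between 0.26 and 0.38, while the adjusted p ranged from 0.0209 to 0.236 and passed in 8 of 18 fits. It was 0.147 once the mitochondrial share entered the fit and 0.133 without day 7 replicate 1.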

How the results depend on the processing

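Ezh2 at day 14, Kdm6b at days 7 and 14, Phf1 at days 14 and 21 and Ezh1 at day 21 kept their direction and their side of both thresholds in every alternative run. Counts of changed members moved as follows. At day 7 the count of 2 became 4 within libraries of like mitochondrial share and 5 with no fold threshold, and it ranged from 2 to 4 when each library was left out in turn (4 without day 0 replicate 3, 3 without day 0 replicate 4). At day 14 the count of 5 became 4 within libraries of like mitochondrial share and 6 with 2 sets or a mean of at least 1 CPM, and the range over libraries left out was 5 to 6. At day 21 it was 2 to 3, and 5 members passed with no fold threshold. Between days 21 and 7 the count of 0 became 1 with the mitochondrial share as a covariate, 1 with libraries in 2 sets parted at 2.5% (Phf19 in both) and 1 with no fold threshold (Kdm6a). Between days 21 and 14 DESeq2 called 1 (Phf19), and 106 genes in all against 0 in edgeR.

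Over the single genes named against day 0, with Kdm6a between days 21 and 7, 703 values kept their direction and side, 33 passed where the reported value did not (9 of them with no fold threshold, on the adjusted p alone, and 24 on both thresholds), 37 no longer passed, and 21 changed sign. The last were Eed, Suz12 and Phf19 in contrasts where the reported value was near 0. Between later days, where neither passed, Phf1 ranged from -0.32 to 0.18 (days 14 and 7) and from -0.37 to 0.18 (days 21 and 7), and Phf19 from -0.30 to 0.45 (days 14 and 7). Eed at day 7 was 0.0507 with the covariate, 0.0387 with 2 sets and 0.0632 within like libraries. Eed at day 14, 0.003 in the reported fit, was -0.0119 with DESeq2, -0.0111 with RLE factors, -0.0112 with total count scaling, -0.0123 with the covariate, -0.0217 with no filter, -0.0214 with 2 groups alone, -0.0278 with a mean of at least 1 CPM, -0.0359 with 2 sets and -0.112 within like libraries, and ranged from -0.0705 to 0.0543 over libraries left out. Suz12 at day 7 was 0.00222 with the covariate and ranged from -0.0635 to 0.0102, and Phf19 at day 21 ranged from -0.28 to 0.10, the latter without day 0 replicate 3. The cause was not tested.

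Libraries of equal replicate number did not pair. Of 21 same-numbered pairs, 8 had deviations correlated over 0.1, the range was -0.244 to 0.397, and the median was 0.0406 against -0.032 for other numbers. With replicate number as a block, 2, 5 and 2 members changed at days 7, 14 and 21 and 0 in each later comparison, as without the block. Depth limits Phf19 most, with 46 to 157 counts per library, and 3 or 4 libraries a day limit all members.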

Other observations

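Members also moved with one another across libraries, given here as a description over the 15 libraries, which share the days, the scaling and the depth. Ezh1 and Kdm6b had the highest Pearson r over all libraries, 0.908 in log2 CPM, and 0.603 after the day means were removed. Within days Phf1 and Phf19 were higher, at 0.74 (against -0.226 over all libraries), as were Kdm6a and Kdm6b at 0.685. Ezh1 and Ezh2 had an r of -0.792, which came to -0.07 within days. Ezh2 and Phf19 had an r of 0.679, and 0.558 within days.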
